A study of Homo sapiens with 6 samples.

Results

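Krüppel-like factors (KLF) are transcription factors that bind GC-rich and CACCC-type DNA through a conserved block of zinc fingers at their C-terminus. Their N-terminal parts differ and recruit different partners, which divides the family into activators and repressors. The genes described here were KLF2, KLF4, KLF5, KLF6, KLF7, KLF9, KLF10, KLF11, KLF12 and KLF13, chosen by name from a fixed list of 10 symbols, out of 58735 genes in the count table. All 10 were found, and all 10 passed the filter on low counts. They were measured by RNA-Seq in BT549, a cell line long established from a basal-like breast cancer, after 48 h with DMSO (3 libraries) or with AS1842856 (3 libraries), a small molecule inhibitor of the transcription factor FOXO1. The labels give a dose of 200 nM, which differs from the dose in the text of the paper and was not resolved here. All libraries came from this cell line without any genetic change named in the labels, and no other cell line was sequenced.

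Between 15289500 and 22981832 reads were counted per library. Levels of a gene are given as CPM, which are counts divided by the library size after TMM scaling, and differences as log2 fold changes of AS1842856 against DMSO from edgeR's quasi-likelihood test, with p-values adjusted over the 14338 genes tested (Benjamini-Hochberg). A gene was called changed at an adjusted p under 0.05. Errors of means are SD with n = 3 per group. The lowest p that exact permutation of 3 against 3 libraries can give is 0.1 (two-sided), so no such test was used. The libraries hold RNA of whole cultures, so fewer cells that express a gene and less RNA per cell cannot be told apart.

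Within the family, KLF2, KLF4, KLF5, KLF6 and KLF7 are known mainly as activators, KLF12 represses through the CTBP corepressors, and KLF9, KLF10, KLF11 and KLF13 recruit the corepressor SIN3A. KLF2 and KLF4 are known for endothelial quiescence and, in the case of KLF4, for epithelial differentiation and reprogramming to pluripotency. KLF5 is known for growth of epithelial progenitors, and KLF10 and KLF11 as early genes of the TGF-beta response. The grouping follows this general knowledge, and it was made with the values known.

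The stretches upstream of 4 members are shown because they cover the range of responses: KLF2 and KLF4 fell, KLF13 rose and KLF6 was not called. Each of these genes has a single RefSeq start. They are read from RefSeq (GRCh38.p14) 5′ to 3′ on the strand of the gene, hold no exon base of the GENCODE annotation, and cover chr19:16324576-16324816 (KLF2, plus strand), chr9:107489770-107490019 (KLF4, minus strand), chr10:3785282-3785459 (KLF6, minus strand) and chr15:31326585-31326834 (KLF13, plus strand). The stretch of KLF4 lies in an intron of a longer GENCODE transcript of that gene. Capitals mark GC boxes (GGGCGG on either strand) and, in KLF2, a match to the site of MEF2 factors.
KLF2: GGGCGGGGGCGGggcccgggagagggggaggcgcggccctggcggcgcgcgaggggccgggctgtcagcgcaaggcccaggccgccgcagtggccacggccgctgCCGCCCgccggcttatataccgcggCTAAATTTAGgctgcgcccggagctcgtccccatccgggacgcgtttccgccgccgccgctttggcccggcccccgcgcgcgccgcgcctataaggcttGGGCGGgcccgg
KLF4: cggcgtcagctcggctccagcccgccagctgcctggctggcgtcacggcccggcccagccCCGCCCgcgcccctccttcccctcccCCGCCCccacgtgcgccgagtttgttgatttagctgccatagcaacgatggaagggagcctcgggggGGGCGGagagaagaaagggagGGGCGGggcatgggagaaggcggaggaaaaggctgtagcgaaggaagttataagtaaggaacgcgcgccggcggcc
KLF6: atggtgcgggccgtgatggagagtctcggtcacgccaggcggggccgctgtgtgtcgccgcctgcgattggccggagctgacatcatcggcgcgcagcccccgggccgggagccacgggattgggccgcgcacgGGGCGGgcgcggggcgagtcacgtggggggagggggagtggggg
KLF13: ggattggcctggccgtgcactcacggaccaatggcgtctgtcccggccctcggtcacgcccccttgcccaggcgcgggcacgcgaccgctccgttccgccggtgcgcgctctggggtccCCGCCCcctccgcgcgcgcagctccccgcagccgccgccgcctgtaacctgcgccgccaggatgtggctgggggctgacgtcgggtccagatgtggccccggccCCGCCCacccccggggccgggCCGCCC

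The stretches of KLF2 and KLF4 held 4 GC boxes each, that of KLF13 held 3 and that of KLF6 held 1. GC boxes are bound by SP and KLF proteins, and they are common in promoters: GGGCGG was found in 45% of the 35116 RefSeq windows, which run from 250 bases before to 50 bases after the start of each gene. It was found in 9 of the 17 windows of the members, belonging to 8 of the 9 genes searched (KLF10 was not used in this search). CACCC, the other sequence known to be bound by KLF proteins, was found in 59.9% of all windows and in 9 of the 17, belonging to KLF5, KLF7, KLF11, KLF12 and KLF13. A CACCC match can share bases with a neighbouring GC box. The FOXO element GTAAACA was found in 3.42% of all windows and in 0 of the 17. CTANNNNTAG, a loose form of the MEF2 site that allows any 4 bases in the middle, was found in 2.73% of all windows. It was also found in windows of KLF2, KLF11 and KLF12, and the middle bases in KLF11 and KLF12 are not given here. In KLF2 it reads CTAAATTTAG and begins 120 bases before the start. Both strands were searched, the GC box and MEF2 letters were chosen after the data were seen, and a match or its absence in these windows says nothing of binding.

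With AS1842856, 5 of the 10 KLF genes fell (KLF2, KLF4, KLF5, KLF7 and KLF11), 2 rose (KLF12 and KLF13) and 3 were not called (KLF6, KLF9 and KLF10). In all, 7 of the 10 were called, where 56.0% of all genes tested were called. Lower calls made up 28.4% of the genes tested and higher calls 27.6%. Changes of at least 1 on the log2 scale were called for 4 members (KLF2, KLF4, KLF7 and KLF13), where 10.6% of all genes tested were called with that size. Treated and control libraries were fully apart for 7 members, and for 59.9% of all genes tested. The median log2 fold change was -0.41 over the members and 0.0030 over all genes tested. No test of these shares was made, and nothing particular to the family was read from them.

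**Figure D1:**
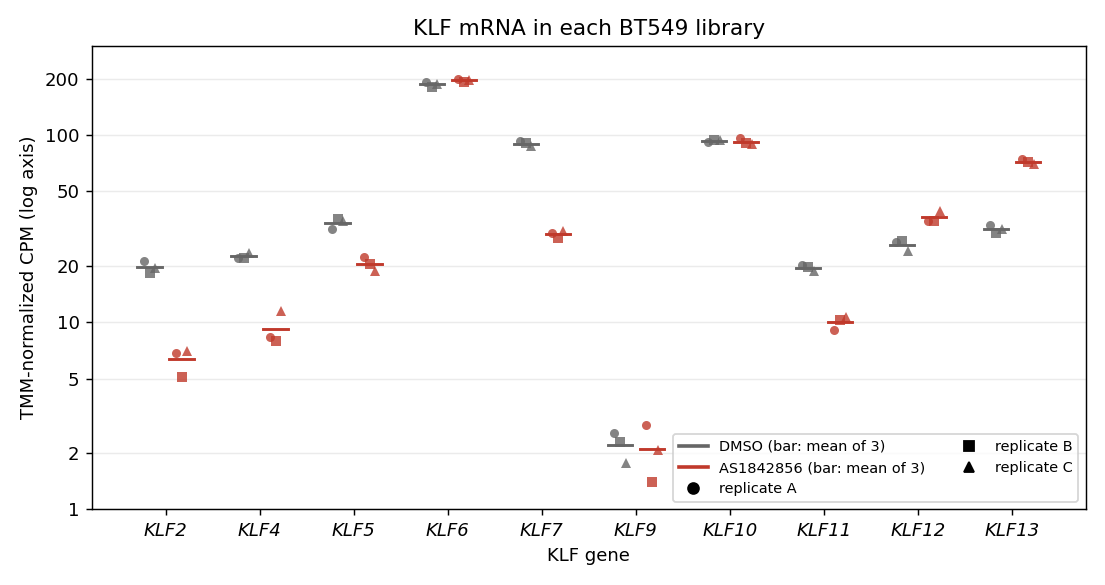
CPM on a log axis of each of the 10 KLF genes, with DMSO in grey and AS1842856 in red, where each point is a library (its shape gives the replicate letter) and each bar is the mean of 3 libraries. The libraries separate for KLF2, KLF4, KLF5, KLF7 and KLF11, which were lower with AS1842856, and for KLF12 and KLF13, which were higher, and they overlap for KLF6, KLF9 and KLF10.

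Among the activators, KLF2 (ENSG00000127528, chromosome 19 from 16324817 to 16327874, GRCh38) and KLF7 had the lowest log2 fold changes, with intervals that overlapped. KLF2 holds T cells and endothelial cells in a quiescent state. Its levels were 21.1, 18.4 and 19.4 CPM in DMSO replicates A, B and C and 6.84, 5.12 and 7.01 CPM with AS1842856. Every treated library lay below every DMSO library, and the mean went from 19.6 ± 1.37 to 6.32 ± 1.04 CPM, 3.11-fold lower. This gave a log2 fold change of -1.66 (SE 0.11, adjusted p = 1.26e-33 in edgeR's quasi-likelihood test), with a 95% interval from -1.88 to -1.43, and 2.34% of the genes tested had a lower value.

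KLF7 (ENSG00000118263, chromosome 2 from 207074137 to 207167267) is known for axon growth in neurons. It stood at 92.6, 90.4 and 87.7 CPM with DMSO and at 30.1, 28.3 and 30.8 CPM with AS1842856. These groups were far apart relative to their spread, with means of 90.2 ± 2.49 and 29.8 ± 1.29 CPM, a 3.03-fold difference. On the log2 scale the difference was -1.60 (SE 0.06, 95% interval from -1.72 to -1.49), with an adjusted p of 1.73e-77 in edgeR, the lowest of the 10 members. Short genes that lie inside KLF7 held at most 0.237% as many counts.

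KLF4 (ENSG00000136826, chromosome 9 from 107484852 to 107490482) was at 22.0, 22.1 and 23.5 CPM in the DMSO libraries and at 8.34, 7.97 and 11.4 CPM in the AS1842856 libraries. The treated libraries were all lower, and replicate C was the highest of them. The mean fell from 22.5 ± 0.812 to 9.25 ± 1.91 CPM, 2.44-fold, with a log2 fold change of -1.29 (SE 0.10, adjusted p = 6.60e-27 in edgeR). Without AS1842856 replicate C the log2 fold change was -1.47.

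KLF5 (ENSG00000102554, chromosome 13 from 73054976 to 73077542) fell less. It stood at 31.6, 35.4 and 34.6 CPM with DMSO and at 22.2, 20.4 and 18.8 CPM with AS1842856. Again no treated library reached the lowest DMSO library. The mean went from 33.9 ± 2.01 to 20.5 ± 1.71 CPM, 1.66-fold lower, with a log2 fold change of -0.72 (SE 0.08, adjusted p = 6.71e-17 in edgeR).

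KLF6 (ENSG00000067082, chromosome 10 from 3775996 to 3785281) was the activator that was not called. KLF6 is an early response gene that is known as a tumour suppressor in prostate cancer. Its levels were 193.0, 180.9 and 188.5 CPM with DMSO and 200.2, 192.7 and 196.9 CPM with AS1842856. DMSO replicate A lay above AS1842856 replicate B, so the groups overlapped. Its log2 fold change was 0.07, with a 95% interval from -0.01 to 0.14 (adjusted p = 0.132 in edgeR), so a rise of more than 0.14 lay outside the interval.

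**Figure D2:**
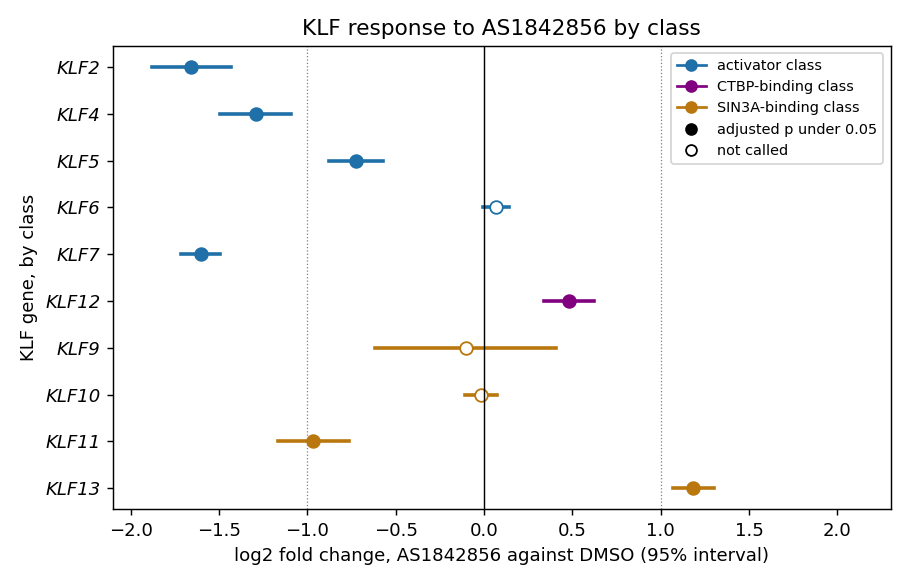
The log2 fold change of AS1842856 against DMSO for each KLF gene, with its 95% interval, coloured by class and filled where the adjusted p was under 0.05, with dotted lines at -1 and 1. The values run from -1.66 for KLF2 to 1.18 for KLF13, and the intervals of KLF6, KLF9 and KLF10 include 0.

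The members that recruit SIN3A went in different directions. KLF13 (ENSG00000169926, chromosome 15 from 31326855 to 31435665), known for activation of CCL5 in T cells, rose the most. Its libraries gave 33.3, 30.1 and 31.4 CPM with DMSO and 74.6, 71.7 and 70.1 CPM with AS1842856. The groups were far apart, and the mean went from 31.6 ± 1.58 to 72.1 ± 2.31 CPM, 2.28-fold higher. This was a log2 fold change of 1.18 (SE 0.06, adjusted p = 1.70e-52 in edgeR), and 3.38% of the genes tested had a higher one.

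KLF11 (ENSG00000172059, chromosome 2 from 10042849 to 10054836) moved the other way. It was at 20.2, 19.8 and 18.7 CPM in DMSO and at 9.06, 10.2 and 10.7 CPM with AS1842856. All treated libraries were lower, and the mean fell from 19.6 ± 0.799 to 9.99 ± 0.828 CPM, 1.96-fold. In log2 terms the change was -0.97 (SE 0.10, adjusted p = 3.61e-17 in edgeR). An antisense gene, AC104794.4, shares 416 exon bases with KLF11 and held 0 counts.

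KLF10 (ENSG00000155090, chromosome 8 from 102648779 to 102655902), the nearest relative of KLF11 in the family, was not called. It had 92.0, 94.2 and 94.2 CPM with DMSO and 96.2, 91.1 and 89.4 CPM with AS1842856. The treated libraries lay on both sides of the DMSO libraries. The log2 fold change of -0.02 had a 95% interval from -0.11 to 0.07 (adjusted p = 0.756 in edgeR), which leaves out a change as large as that of KLF11.

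KLF9 (ENSG00000119138, chromosome 9 from 70384597 to 70414624), a gene known to respond to glucocorticoids and thyroid hormone, was the member with the fewest reads. Its counts were 56, 35 and 33 with DMSO and 47, 32 and 37 with AS1842856, or 2.20 ± 0.393 and 2.10 ± 0.710 CPM. The groups overlapped, and the log2 fold change was -0.10 with a 95% interval from -0.62 to 0.41 (adjusted p = 0.757 in edgeR). At this depth a change within that interval was not excluded. The sign of the value turned without DMSO replicate A (0.03) and without AS1842856 replicate B (0.14).

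The CTBP-binding member, KLF12 (ENSG00000118922, chromosome 13 from 73686089 to 73995056), rose. KLF12 is known as a repressor of TFAP2A. Its levels were 26.8, 27.0 and 24.1 CPM with DMSO and 34.8, 34.8 and 39.4 CPM with AS1842856. No library of one group reached the other, and the mean went from 26.0 ± 1.63 to 36.3 ± 2.63 CPM, 1.40-fold higher. Its log2 fold change was 0.48 (SE 0.07, adjusted p = 8.58e-10 in edgeR).

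The deposited FPKM values, which divide by gene length and library size, allow levels to be compared between genes. KLF6 was the most abundant member with DMSO at 30.3 ± 1.03 FPKM, followed by KLF10 at 23.2 ± 0.293 FPKM. KLF7 and KLF2 came next at 9.68 ± 0.271 and 9.67 ± 0.690 FPKM, and these neighbours in the order overlapped. Below them stood KLF5 (8.65 ± 0.502), KLF4 (6.12 ± 0.223), KLF11 (4.24 ± 0.173), KLF13 (3.34 ± 0.172), KLF12 (2.36 ± 0.147) and KLF9 (0.423 ± 0.0756 FPKM), with no overlap between neighbours from KLF2 down.

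With AS1842856 the first places were unchanged, with KLF6 at 31.8 ± 0.626 and KLF10 at 22.9 ± 0.897 FPKM. KLF13 went from rank 8 to rank 3 at 7.62 ± 0.253 FPKM, above KLF5 at 5.22 ± 0.442 FPKM. KLF12 (3.31 ± 0.236), KLF7 (3.19 ± 0.137), KLF2 (3.11 ± 0.513), KLF4 (2.51 ± 0.515) and KLF11 (2.16 ± 0.177 FPKM) followed. Each from KLF12 to KLF4 overlapped the next, and KLF11 did not overlap KLF9. KLF9 was last at 0.403 ± 0.137 FPKM.

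The summed FPKM of the 10 members was 99.4, 96.7 and 98.0 in the DMSO libraries and 84.5, 80.0 and 82.3 in the AS1842856 libraries. KLF16 and KLF3 are not members and lie outside it. KLF16 had 28.6 ± 0.478 FPKM with DMSO and 41.0 ± 2.52 FPKM with AS1842856, where its mean was above that of KLF6. KLF3 had 9.16 ± 0.208 and 9.90 ± 0.475 FPKM. The sum of the members therefore does not stand for the KLF family as a whole. KLF6 made up 31.0% of that sum with DMSO and 38.7% with AS1842856, and KLF10 made up 23.7% and 27.8%. KLF13 rose from 3.41% to 9.26% of the sum, while KLF2 went from 9.86% to 3.78% and KLF7 from 9.88% to 3.88%. By class, the activators went from 64.5 ± 1.38 to 45.9 ± 1.53 FPKM, and without KLF6 from 34.1 ± 0.350 to 14.0 ± 0.959 FPKM. The activators other than KLF6 were all called lower, so the fall of the sum without KLF6 was fixed by leaving it out. The class that recruits SIN3A stood at 31.2 ± 0.0822 and 33.1 ± 1.07 FPKM. Its share went from 31.8% to 40.2% while the sum of the members fell. Within this class KLF13 rose and KLF11 fell. KLF16, which also recruits SIN3A and was higher with AS1842856, is not in the class sum. These sums are descriptions without a test, since the classes were formed with the values known.

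**Figure D3:**
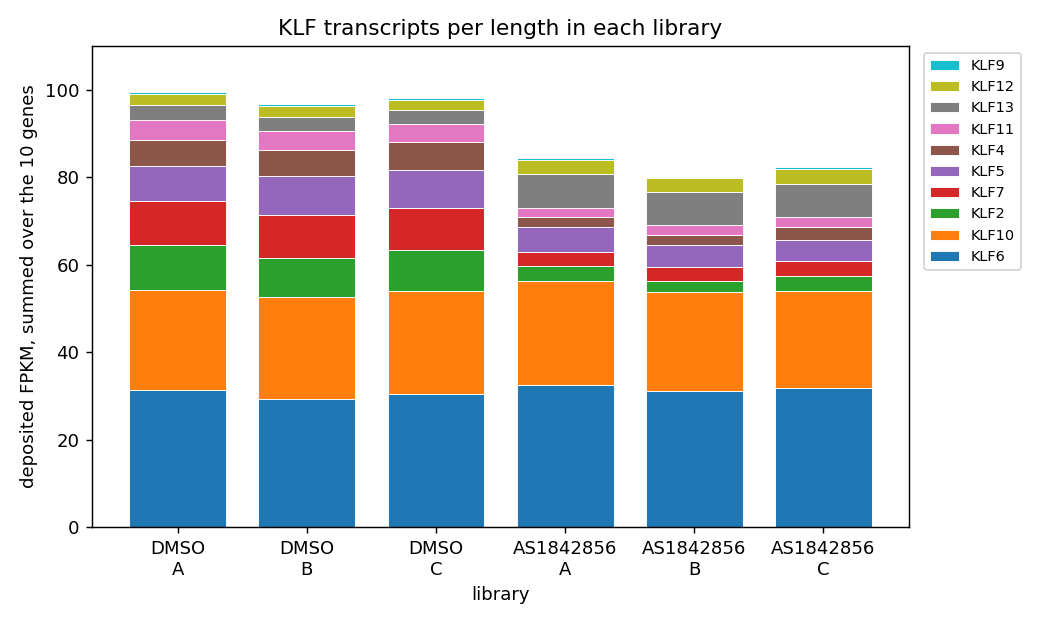
Deposited FPKM of the 10 KLF genes stacked by gene, with a bar for each of the 3 DMSO and 3 AS1842856 libraries. The stacks are 96.7 to 99.4 FPKM high with DMSO and 80.0 to 84.5 FPKM with AS1842856, KLF6 and KLF10 form the largest parts of every bar, and the part of KLF13 is taller with AS1842856.

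Of 7 other KLF genes, 3 had enough counts to be tested. KLF16 (ENSG00000129911), which also recruits SIN3A, rose from 85.0 ± 1.36 to 121.8 ± 7.35 CPM, with a log2 fold change of 0.52 (SE 0.05, adjusted p = 1.03e-23 in edgeR). KLF17 (ENSG00000171872), a gene of the early embryo, fell to nearly no counts, with 27, 14 and 19 counts in DMSO and 0, 0 and 1 with AS1842856. It passed the filter on low counts through the DMSO libraries, where it was higher, so its call is not independent of that filter. The ratio of the summed counts, adjusted for library size, was 61.5, with an exact 95% interval from 10.6 to 2471 that covers counting error only (adjusted p = 2.51e-10 in edgeR). The antisense gene AL356653.1 held 14.8% as many counts as KLF17, and reads from any exon bases that the pair shares cannot be told apart if strand was not used. KLF3, a partner of CTBP like KLF12, had a log2 fold change of 0.11 and was not called (adjusted p = 0.0713 in edgeR), although it was called without AS1842856 replicate B (0.0292). KLF8 had 0 counts in every library.

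The SP proteins share the zinc finger block with the KLF family and bind the same GC boxes. Of 9 SP genes, 8 were tested. SP5, SP6, SP7 and SP9 had few or no counts with DMSO and passed the filter on low counts through the AS1842856 libraries. Their calls and adjusted p-values are therefore not independent of that filter, and no count or median over the list is given. Of the other 4 tested, SP1 and SP2 were higher and SP3 and SP4 were not called. SP7 (osterix), known for bone formation, had 0 counts in every DMSO library and 22, 31 and 25 counts with AS1842856. It was at least 8.28-fold higher when 3 counts per library are taken as the limit in DMSO (adjusted p = 1.12e-13 in edgeR). SP5, known as a target of WNT signalling, rose from 0.162 ± 0.186 to 1.46 ± 0.301 CPM, with a log2 fold change of 3.13 (SE 0.50), which was 4.60 without DMSO replicate C. SP9, known in the forebrain, rose from 0.303 ± 0.169 to 1.27 ± 0.458 CPM (log2 fold change 2.01, SE 0.46). The ubiquitous factor SP1 had a log2 fold change of 0.22 (adjusted p = 3.82e-06 in edgeR), SP2 of 0.44, and SP3 of 0.00 with a 95% interval from -0.08 to 0.08. SP6 was called at an adjusted p of 0.0146 in edgeR, and the call was lost without DMSO replicate B (0.0721), DMSO replicate C (0.0679) or AS1842856 replicate B (0.0794), and with all libraries in DESeq2 (0.0929). Unfiltered limma on log2(FPKM + 1) did not call SP6 either.

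Of 10 cofactors of KLF proteins, 3 were higher, 3 lower and 4 not called, with a median log2 fold change of 0.05. Of all genes tested, 56.0% were called. The fall was largest in corepressor genes, where CTBP2 went from 93.4 ± 1.49 to 61.1 ± 0.70 CPM, with a log2 fold change of -0.61 (SE 0.05, adjusted p = 1.51e-26 in edgeR). SIN3A went from 64.1 ± 2.0 to 47.0 ± 3.12 CPM, with a log2 fold change of -0.45 (SE 0.06, adjusted p = 1.90e-13 in edgeR). CTBP1 fell by 0.16 on the log2 scale, and SIN3B was not called at 0.02 (adjusted p = 0.767 in edgeR). The histone deacetylases HDAC1 and HDAC2, which act with SIN3A, rose by 0.17 and 0.22. ZRANB1 on the opposite strand held 15.1% as many counts as CTBP2.

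Among 6 ubiquitin ligases known to act on KLF proteins, 2 were higher, 1 lower and 3 not called, and the values called were small. The share called over all genes tested was 56.0%. WWP1, a ligase for KLF5, had a log2 fold change of 0.17 (adjusted p = 0.000477 in edgeR). RMDN1 on the opposite strand held 36.7% as many counts as WWP1. FBXW7 and BTRC were called at 0.21 and -0.22 (adjusted p = 0.0276 and 0.00884 in edgeR). The call of FBXW7 was lost without DMSO replicate A (adjusted p = 0.202) or AS1842856 replicate B (0.358), and that of BTRC without DMSO replicate C (0.0594) or AS1842856 replicate B (0.0658). With all libraries, DESeq2 called neither (0.159 and 0.0589).

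Among 13 genes known to act upstream of KLF genes, 5 were higher, 6 lower and 2 not called (median log2 fold change -0.12). For comparison, 56.0% of all genes tested were called. The known route to KLF2 and KLF4 runs from MAP3K2 and MAP3K3 through MAP2K5 and MAPK7 to MEF2 factors. MEF2C (ENSG00000081189) had 14.98, 14.85 and 17.98 CPM with DMSO and 89.0, 82.3 and 77.6 CPM with AS1842856, a clear separation and the largest change of the list. Its log2 fold change was 2.38 (SE 0.07, adjusted p = 2.37e-94 in edgeR). Of the members with a match to the loose letters CTANNNNTAG, KLF2 and KLF11 were lower and KLF12 was higher. MEF2A rose by 0.61, MEF2D was not called at -0.12 (adjusted p = 0.0608 in edgeR, and 0.0413 without DMSO replicate B), and MAPK7 rose by 0.21. MAP3K3 fell by 0.57 and MAP2K5 fell by 0.62 on the log2 scale, and MAP3K2 was not called.

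Of 5 genes of the TGF-beta route, which is known to induce KLF10 and KLF11, 3 were called lower (SMAD3, TGFBR1 and SMAD4) and 2 higher (TGFBR2 and SMAD2). Calls were made for 56.0% of all genes tested. SMAD3 (ENSG00000166949) stood at 105.1, 102.7 and 99.4 CPM with DMSO and at 43.3, 43.6 and 37.6 CPM with AS1842856, with no overlap. Its log2 fold change was -1.30 (SE 0.05, adjusted p = 4.11e-67 in edgeR). The receptor TGFBR1 fell from 107.2 ± 4.87 to 61.9 ± 4.96 CPM (log2 fold change -0.79, SE 0.05), while TGFBR2 rose by 0.38. The values of SMAD4 (-0.19) and SMAD2 (0.13) were small, and their calls were lost with DESeq2 (adjusted p = 0.0538 and 0.139), with limma on FPKM and with some libraries left out (SMAD4 without DMSO replicate B, SMAD2 without AS1842856 replicate A or B or DMSO replicate A or C). NR3C1, the glucocorticoid receptor known to induce KLF9, fell by 0.56 on the log2 scale (adjusted p = 3.89e-33 in edgeR).

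Of 17 genes known as targets of KLF proteins, 10 were tested, of which 5 were higher and 5 were lower (median log2 fold change -0.14). Over all genes tested, 56.0% were called. S1PR1 (ENSG00000170989), a receptor that KLF2 activates in T cells, was at 80.9, 81.5 and 76.1 CPM with DMSO and at 23.8, 27.5 and 20.5 CPM with AS1842856. It fell by 1.72 on the log2 scale (SE 0.06, adjusted p = 6.61e-61 in edgeR), the same direction as KLF2. CCL5, which KLF13 is known to activate, went from 5.83 ± 0.502 to 2.03 ± 0.576 CPM with a log2 fold change of -1.49 (SE 0.20, adjusted p = 4.52e-12 in edgeR), the direction opposite to that of KLF13. TFAP2A, which KLF12 is known to repress, rose by 0.27 (adjusted p = 5.15e-11 in edgeR), the same direction as KLF12.

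CCND1 (ENSG00000110092), the cyclin D1 gene, had 189.0, 208.2 and 207.1 CPM with DMSO and 641.9, 656.2 and 633.9 CPM with AS1842856. It rose by 1.68 on the log2 scale (SE 0.04, adjusted p = 3.60e-121 in edgeR). LTO1 on the opposite strand held 6.40% as many counts as CCND1. CDKN1A, the cell cycle inhibitor that KLF4 and KLF6 are known to activate, rose by 0.38 (adjusted p = 0.00726 in edgeR), a call that was lost without DMSO replicate A (0.089) or AS1842856 replicate B (0.0806) and with all libraries in DESeq2 (0.0692). SMAD7 rose by 0.79 and TXNIP by 0.36 on the log2 scale. TAGLN fell by 0.96, ENG fell by 0.56 and TGFB1 fell by 0.57 on the log2 scale. The values of TAGLN and TGFB1 may be uncertain, since overlapping genes on the opposite strand held 60.1% (PCSK7) and 662.8% (HNRNPUL1) as many counts. Those counts are of whole genes, and the exon bases shared with TAGLN and TGFB1 were not measured.

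**Figure D4:**
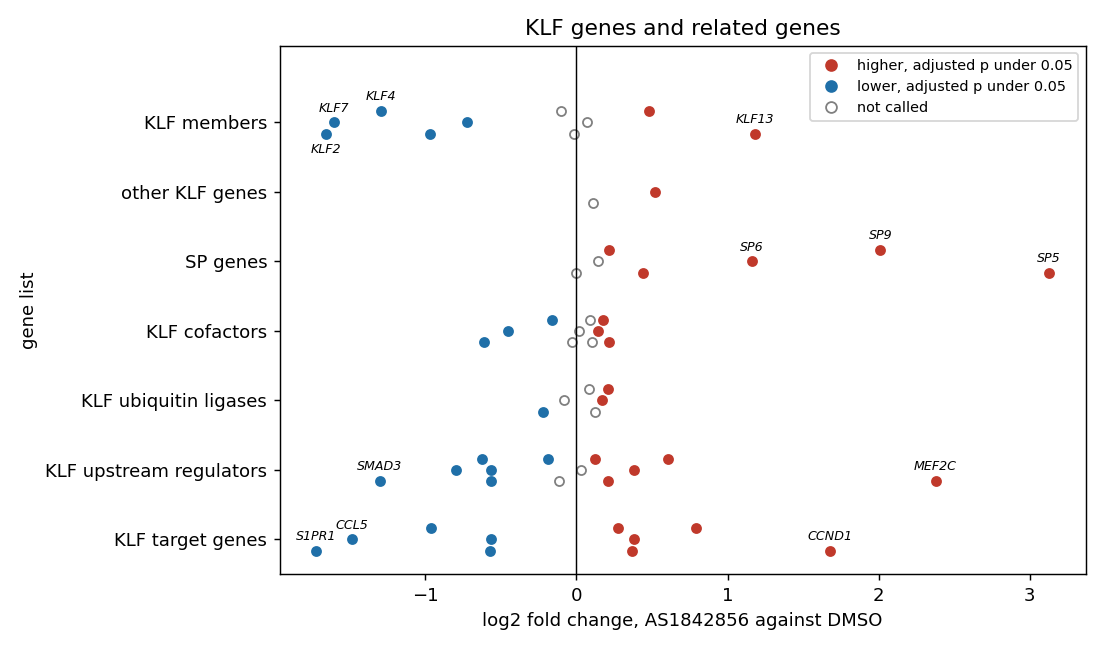
The log2 fold change of AS1842856 against DMSO for each tested gene of the KLF members and the 6 related lists, where each point is a gene (red higher, blue lower, open not called). KLF17 and SP7 are left out because the libraries of a group held nearly no counts. The points of the cofactors run from -0.61 to 0.22 and those of the ubiquitin ligases from -0.22 to 0.21, and the KLF members, upstream regulators and targets lie on both sides of 0. SP5, SP6 and SP9, the SP genes furthest to the right, passed the filter through the AS1842856 libraries.

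The label of the cells was compared with markers. All 6 markers of mesenchymal-like basal cells were expressed, with a summed level of 3964 to 4095 CPM with DMSO and 3715 to 3775 CPM with AS1842856. All 6 were called, FN1 (1.13) and ZEB1 (0.50) higher and VIM (-0.34), CD44 (-0.45), SPARC (-0.47) and CDH2 (-0.19) lower on the log2 scale. Among all genes tested, 56.0% were called. Of the luminal markers, ESR1, PGR, EPCAM and CDH1 had at most 8 counts in any library, and GATA3 and KRT8 made up nearly all of a sum of 90.3 to 94.1 CPM with DMSO and 61.4 to 69.7 CPM with AS1842856. Within that sum KRT8 went from 40.9 ± 1.79 to 4.15 ± 0.301 CPM (log2 fold change -3.31, SE 0.10, adjusted p = 2.14e-88 in edgeR), while GATA3 rose by 0.28. Leukocyte markers summed to 0.807 to 1.69 and 2.64 to 3.59 CPM, mainly PTPRC, with CD3E at 0 counts, and endothelial markers to 0.538 to 1.05 and 1.05 to 1.74 CPM, with CDH5 at 0 counts. The part of these marker levels in the values of the KLF genes was not tested.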

How the data were processed

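RNA was extracted from BT549 cells after 48 h with DMSO or AS1842856, in 3 libraries each, which the paper calls biological replicates. The authors deposited raw counts per gene and FPKM values per library, after mapping with STAR according to the paper. The submitters' processing notes name CASAVA and Bowtie 0.12.2. The counting tool, its use of strand and the annotation are not given in the sources used here. Symbols and positions came from GENCODE 29 (GRCh38), which matched all 58735 identifiers.

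The analysis of counts used edgeR 4.0.16 under R 4.3.3 (filterByExpr at 10 counts and 15 in total, TMM, glmQLFit with robust estimation, glmQLFTest, no block). The common biological coefficient of variation was 0.0374. SE is the size of a log2 fold change divided by the square root of F, and 95% intervals use normal quantiles. Between-gene levels used the deposited FPKM. Limits and intervals on counts cover counting error only, since reads are not independent molecules. The P-values come from setting the difference between the groups against the spread of libraries within groups. They cover these 6 libraries of this cell line only and say nothing of variation beyond them. The fits were tested first on simulated data.

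The KLF genes and all lists were chosen with earlier results of these data known, and the lists were written from general knowledge. All members were named, and of each related list the called genes with the largest change, up to 4 (6 for targets). KLF3, KLF8, SP1 to SP4, SMAD2, SMAD4, CTBP1, SIN3B, MAP3K2, MAP3K3, MAPK7, MEF2A, MEF2D, TGFBR2, NR3C1, TFAP2A, CDKN1A, TXNIP and ENG were named after their values were seen, for their known relation to members. Alternatives were DESeq2 1.42.0, its size factors in edgeR, library totals, unfiltered genes, only genes averaging 50 counts or more, a replicate block, limma 3.58.1 on log2(FPKM + 1) or log2(FPKM + 0.1) with a mean FPKM of at least 0.5, the former also without a filter, and each library left out. Protein sequences were not used here.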

Additional observations from a re-analysis of the deposited data

How the results depend on the processing

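The same 7 KLF genes were called in the same direction in all 15 alternative fits, 9 with all libraries and 6 with 1 library left out. Between 3 and 5 members were called with a log2 fold change of at least 1, where KLF11 and KLF13 lay near that limit. Between 29 and 38 related genes were called, with 38 in the main fit. The main fit tested 3 other KLF genes, 8 SP genes, 10 cofactors, 6 ubiquitin ligases, 13 upstream regulators and 10 targets. The related genes called include KLF17, SP5, SP6, SP7 and SP9 where those were tested and called, so these counts are not independent of the filter. Over all genes, between 6453 and 8030 were called, and the main fit called 56.0% of the 14338 tested. The number of genes tested differed between fits. Samples with the same letter did not deviate together (correlations from -0.012 to 0.042), so the letters were taken as names only. The fit with a replicate block called 7 members, 37 related genes and 7862 genes in all, against 8029. Called ubiquitin ligases dropped from 3 to 1 with DESeq2 and without AS1842856 replicate B, and to 0 with limma on log2(FPKM + 1) and no filter, and the cause was not tested. With a mean of at least 50 counts, or in limma with a mean FPKM of at least 0.5, fewer genes were tested. KLF17, SP5, SP6, SP7 and SP9 were not tested there, and other called KLF genes dropped from 2 to 1. KLF9 was not tested with a mean of at least 50 counts or a mean FPKM of at least 0.5. Depth limits KLF9, KLF17 and the SP genes with the fewest counts.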
